A study of Mus musculus with 6 samples.

Results

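The OAS family, the 2′-5′-oligoadenylate synthetases and their close relatives, was followed in bulk RNA from hearts of aged female mice. Its members were the 8 genes Oas1a, Oas1b, Oas1c, Oas1g, Oas2, Oas3, Oasl1 and Oasl2, found by symbol in the GRCm38 annotation of the Ensembl identifiers, and they were 8 of the 22298 genes in the deposited table. All 8 were in the table, and all 8 had enough reads to be tested. The TAC group held 3 heart libraries from wild-type (WT) female mice of 18 months that had undergone TAC, in work on the heart the usual short name of transverse aortic constriction. That operation ties a band around the aorta, so that the left ventricle has to pump against a raised pressure. The sham group held 3 heart libraries from WT female mice of the same age after sham surgery, which leaves the aorta open. The labels state neither the strain nor how long after surgery the hearts were taken. The sample titles number the hearts within each group, but the labels do not state how many animals a library stands for. The spread that p-values measure is therefore that between these samples, part or all of which may be technical. The question asked of the data was which OAS genes, and which genes of the 2-5A pathway around them, differed between TAC and sham hearts.

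OAS proteins are interferon-induced sensors of double-stranded RNA. When they bind it, the active members join ATP into short 2′-5′-linked oligoadenylates, called 2-5A, a second messenger that slows protein synthesis and the spread of a virus. The family is best known from antiviral defence, and its RNA is used, with that of other interferon-induced genes, as a readout of interferon signalling in many tissues.

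The libraries held between 19747265 and 27549838 estimated counts. TAC replicate 1 stood apart from the other TAC libraries on the first principal component. On the first principal component of log2 CPM (reads of a gene relative to its library's adjusted total), which held 57.7% of the variance, TAC replicates 1, 2 and 3 lay at -1.70, 42.9 and 45.5, and sham replicates 1, 2 and 3 at -25.2, -29.5 and -32.0. Chi-square over degrees of freedom, which measures difference beyond read sampling, did not set TAC replicate 1 apart in the same way. It was 78.3 between TAC replicates 1 and 2, 85.6 between 2 and 3 and 100 between 1 and 3. Results that rest on TAC replicate 1 are given with and without it. A gene was called where its p from edgeR's quasi-likelihood test, adjusted by Benjamini and Hochberg's method over all 13708 genes tested, was under 0.05. By this rule 1.66% of the genes were called, 1.12% as higher and 0.54% as lower in TAC. In the fit without TAC replicate 1, 23.2% of 13907 genes were called, 13.2% as higher, and 1392 genes were called as lower.

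All 8 members lie on chromosome 5 in GRCm38, in a pair of clusters. Oasl2 (ENSMUSG00000029561, bases 114896936 to 114912234, plus strand) and Oasl1 (ENSMUSG00000041827, bases 114923240 to 114937915, plus strand) are neighbours. The other 6 lie between bases 120730333 and 120907521. In that order they are Oas2 (ENSMUSG00000032690, 120730333 to 120749853), Oas3 (ENSMUSG00000032661, 120753098 to 120777661) and Oas1c (ENSMUSG00000001166, 120800194 to 120812514). Oas1b (ENSMUSG00000029605, 120812635 to 120824163), Oas1g (ENSMUSG00000066861, 120876142 to 120887613) and Oas1a (ENSMUSG00000052776, 120896256 to 120907521) follow. Oas1b is on the plus strand and is annotated as a polymorphic pseudogene, a gene intact in some mouse strains and broken in others, and the other 5 are protein coding on the minus strand. Oas2, Oas1c and Oasl1 overlap another annotated gene on the opposite strand, Gm43069 and Gm13822 being antisense transcripts of Oas1c and Oasl1 and Gm43068, at Oas2, a gene model still to be tested by experiment, and since the labels do not state that strand was kept, reads there may not have been told apart.

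Promoters are shown because the interferon-stimulated response element (ISRE), the site bound by the STAT and IRF factors downstream of interferon, marks many genes that interferon induces. The RefSeq promoter table (GRCm38.p6) held 6 of the 8 members. Its windows of 300 bases, from 250 before to 50 after the start, were searched on both strands for an ISRE core, GAAANNGAAA, with overlapping matches counted. A match was in the windows of Oas3, Oas1a, Oas1g and Oas1c, and 3.44% of all 32851 windows of this length held one. The 150 bases before each start follow, 5′ to 3′ on the strand of the gene, with capitals marking every ISRE core.
Oas3 (chr5:120777660-120777809, minus strand): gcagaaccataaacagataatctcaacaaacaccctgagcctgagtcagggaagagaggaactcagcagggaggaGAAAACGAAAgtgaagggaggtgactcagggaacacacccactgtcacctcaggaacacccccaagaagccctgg
Oas1a (chr5:120907526-120907675, minus strand): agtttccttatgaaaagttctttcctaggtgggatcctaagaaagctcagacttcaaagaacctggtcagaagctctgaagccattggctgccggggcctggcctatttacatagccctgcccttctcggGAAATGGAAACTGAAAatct
Oas1g (chr5:120887614-120887763, minus strand): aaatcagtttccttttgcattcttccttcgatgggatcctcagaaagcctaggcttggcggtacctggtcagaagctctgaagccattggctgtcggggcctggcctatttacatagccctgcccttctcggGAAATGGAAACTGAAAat
Oas1c (chr5:120812515-120812664, minus strand): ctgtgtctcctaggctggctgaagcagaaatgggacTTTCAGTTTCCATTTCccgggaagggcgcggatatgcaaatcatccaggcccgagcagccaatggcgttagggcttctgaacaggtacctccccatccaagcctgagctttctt
Oas3 held 1 core, 75 bases before its start. Oas1a and Oas1g each held the same run of 2 overlapping cores, first bases 20 and 14 before the start in Oas1a and 18 and 12 in Oas1g. Oas1c held 2 overlapping cores that read on its opposite strand, which is the strand of Oas1b. The stretch shown for Oas1c takes in the annotated start of Oas1b, at base 120812635, and the cores lie before that start. Read on the strand of Oas1b, they have the same letters as the run in Oas1a and Oas1g. Oas1b was not in the promoter table, so a window of its own was not searched. The windows of Oasl1 and Oasl2 did not hold these letters. The gamma-activated site, TTCNNNGAA, was found in the window of Oas1a, 98 bases before the start, and in 8.30% of all windows.

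Oas1a and Oas1g are near copies of each other, which matters for how their reads were divided. Over 1101 aligned bases of coding sequence (GENCODE M21, GRCm38) they were 96.7% identical, with 36 mismatches and one identical run of 231 bases. Of the windows of 100 bases in the Oas1a transcript, 40.9% also occurred in Oas1g, and no such window of Oas2, Oas3, Oasl1 or Oasl2 occurred in another Oas gene. The 90 coding bases where the pair differ most, positions 438 to 527 counted from the A of the start codon, hold 17 of the mismatches, and are shown with the differing bases in capitals because only reads over such bases tell the genes apart.
Oas1a: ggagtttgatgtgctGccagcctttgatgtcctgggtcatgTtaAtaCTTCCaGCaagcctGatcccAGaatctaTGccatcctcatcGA
Oas1g: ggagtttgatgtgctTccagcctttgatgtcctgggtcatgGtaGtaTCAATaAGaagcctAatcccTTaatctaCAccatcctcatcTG
The deposited counts of both genes were fractional in every library, and their sums were whole in all 6. Between 16.7% and 22.8% of the summed reads had been assigned to Oas1g.

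FPKM, the fragment density scaled by gene length and library depth, allows levels to be compared between genes. Oasl2, an OAS-like gene with ubiquitin-like domains, had the highest level in every library. It stood at 11.93, 7.82 and 8.19 FPKM in TAC replicates 1, 2 and 3 and at 10.76, 9.05 and 14.48 FPKM in sham replicates 1, 2 and 3. The order of mean FPKM was the same in TAC and in sham hearts: Oasl2, Oas1a, Oas2, Oasl1, Oas1g, Oas1b, Oas1c and Oas3. The ranges of Oasl1, Oas1g and Oas1b each overlapped that of the next in the order in both groups. Oas2 was above Oasl1 without overlap in TAC, and their ranges overlapped in sham. Oas3 had the lowest mean in both groups, at 0.440 ± 0.0954 FPKM in TAC and 0.163 ± 0.0404 FPKM in sham (SD, n = 3 each). In sham its range lay below that of every other member. In TAC it reached 0.55 FPKM and overlapped Oas1b, which ran from 0.49 to 0.82 FPKM. Oasl2 made up 48.5%, 46.3% and 39.8% of the summed FPKM of the 8 members in TAC replicates 1, 2 and 3, against 54.8%, 56.8% and 60.0% in sham replicates 1, 2 and 3. This share was lower in every TAC library than in any sham library, while the summed FPKM itself overlapped, at 16.88 to 24.61 in TAC and 15.93 to 24.13 in sham.

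**Figure D1:**
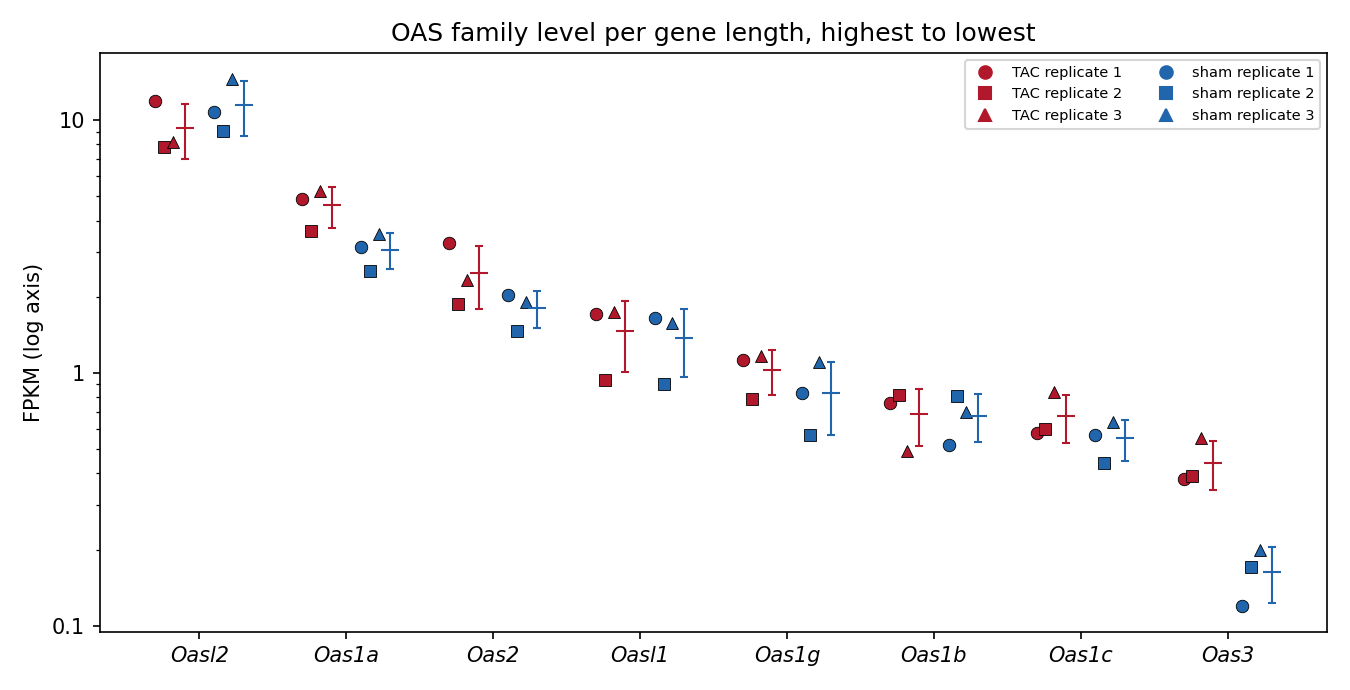
Deposited FPKM of the 8 OAS genes on a log axis, in order of level, with TAC libraries in red and sham libraries in blue (3 each), and bars for the mean and SD. Oasl2 lies at 7.82 to 14.48 FPKM in all libraries and Oas3 at 0.12 to 0.55 FPKM.

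Oas3 was the one member of 8 that rose in TAC, none fell, and 7 did not pass the edgeR test, where 1.12% of all genes were called higher and 0.54% lower. Oas3 and Oas1a had an unadjusted p under 0.05, as had 3508 of the 13708 genes tested, in either direction. DESeq2 called Oas3 alone, beside 7.81% of all genes called higher. Oas3 is the longest of the synthetases, with 3 OAS domains, and in human cells it makes 2-5A in response to long double-stranded RNA. It had 46, 43 and 58 reads in TAC replicates 1, 2 and 3, against 11, 13 and 17 reads in sham replicates 1, 2 and 3. On the CPM scale, which adjusts for library size, the values were 1.87, 1.87 and 2.47 in TAC and 0.564, 0.478 and 0.785 in sham. Every TAC library was above every sham library. The means were 2.07 ± 0.345 CPM in TAC and 0.609 ± 0.158 CPM in sham (SD, n = 3 each). This was a 3.39-fold difference and a log2 fold change of 1.76 (edgeR, SE 0.33, adjusted p = 0.0471). A log2 fold change of this size or larger was seen in 1.77% of all genes tested. In bulk tissue, more cells that carry an RNA and more of that RNA per cell cannot be told apart.

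The Oas3 call lay close to the threshold. Its fold change without TAC replicate 1 was 1.81 on the log2 scale, with an adjusted p of 0.0178 (edgeR). The adjusted p was 0.125 without TAC replicate 2 and 0.0875 without TAC replicate 3. It was 0.157, 0.243 and 0.191 without sham replicates 1, 2 and 3, and over these 6 fits the log2 fold change ran from 1.58 to 1.98. Calls over all genes moved too. The main fit called 153 genes higher, and the fits without TAC replicates 2 and 3 called 20 and 82. Those without sham replicates 1, 2 and 3 called 6, 7 and 4 genes higher. The deposited FPKM of Oas3 did not follow its counts in every library. Dividing counts by FPKM and depth gave an implied gene length of 4692, 4720 and 4756 bases in TAC replicates 1, 2 and 3, and 4642, 2776 and 4030 bases in sham replicates 1, 2 and 3. The annotated coding transcript of Oas3 has 4720 bases. In sham replicates 2 and 3 the FPKM was thus scaled to a shorter length, which raises it relative to the counts. On log2(FPKM + 1) the difference was 0.31 (limma adjusted p = 0.133), a scale that shrinks the fold of genes at such low FPKM.

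**Figure D2:**
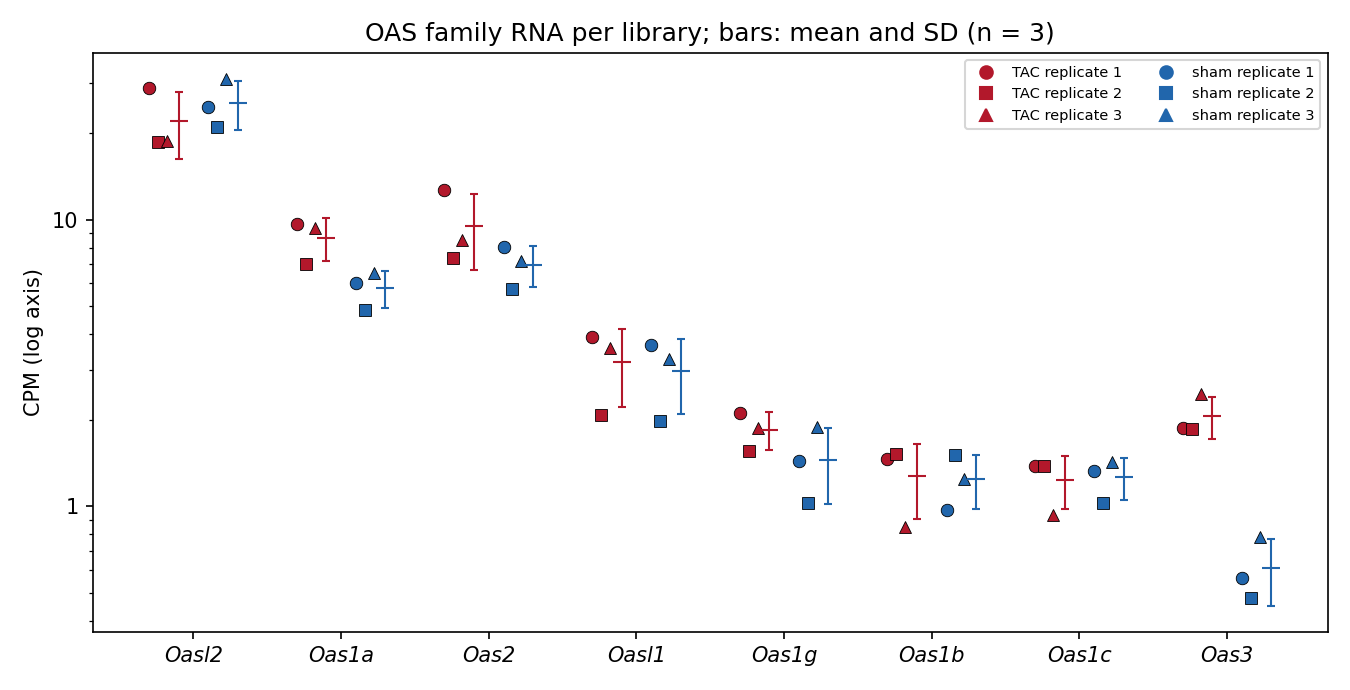
CPM of the 8 OAS genes on a log axis, with TAC libraries in red and sham libraries in blue (3 each, 1 symbol per replicate number), and bars for the mean and SD. Oas3 lies at 1.87 to 2.47 CPM in TAC and at 0.478 to 0.785 CPM in sham, and Oas1a is the other gene whose groups do not overlap.

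Oas1a, an active synthetase of the OAS1 group, had higher values in all TAC libraries than in any sham library but did not pass the test. Its values were 9.65, 6.99 and 9.36 CPM in TAC replicates 1, 2 and 3, and 6.004, 4.86 and 6.51 CPM in sham replicates 1, 2 and 3. The log2 fold change was 0.58 (edgeR, SE 0.20, adjusted p = 0.119). Oas3 and Oas1a were the 2 of 8 members higher in TAC without overlap between the groups, where 18.4% of all genes tested were, and no member was lower without overlap, where 13.1% of all genes were.

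Oas1g, its near copy and also an active synthetase, had 2.12, 1.56 and 1.87 CPM in TAC replicates 1, 2 and 3 and 1.44, 1.03 and 1.89 CPM in sham replicates 1, 2 and 3. The groups overlapped through sham replicate 3, and the log2 fold change was 0.35 (edgeR, SE 0.32, adjusted p = 0.516). Because reads of the pair were divided between them, their sum was also tested. It held 289, 197 and 264 reads in TAC replicates 1, 2 and 3, against 145, 160 and 182 reads in sham replicates 1, 2 and 3. Its log2 fold change was 0.54 (edgeR adjusted p = 0.139).

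Oas2, a synthetase of 2 OAS domains, had 12.7, 7.34 and 8.51 CPM in TAC replicates 1, 2 and 3 and 8.01, 5.74 and 7.16 CPM in sham replicates 1, 2 and 3. TAC replicate 1 was the highest library, and TAC replicate 2 lay inside the sham range. The log2 fold change was 0.45 (edgeR, SE 0.24, adjusted p = 0.268), and 0.17 without TAC replicate 1. Oas3 and Oas2, which lie next to each other on the chromosome, stood in different proportions: the FPKM of Oas3 was 11.7%, 20.9% and 23.6% of that of Oas2 in TAC replicates 1, 2 and 3, against 5.88%, 11.6% and 10.5% in sham replicates 1, 2 and 3. In sham replicates 2 and 3 the FPKM of Oas3 was scaled to a shorter length, as described above, which raises it relative to the counts.

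Oas1b and Oas1c are the members of the OAS1 group without known synthetase activity, Oas1b being known for a truncated form that leaves many laboratory strains open to flaviviruses. Oas1b had 36, 35 and 20 reads in TAC replicates 1, 2 and 3 and 19, 41 and 27 reads in sham replicates 1, 2 and 3, a log2 fold change of 0.03 (edgeR, SE 0.35, adjusted p = 0.963). Oas1c had 34, 32 and 22 reads in TAC replicates 1, 2 and 3 and 26, 28 and 31 reads in sham replicates 1, 2 and 3, a log2 fold change of -0.03 (edgeR, SE 0.32, adjusted p = 0.965). Both genes overlapped between the groups, and their sign changed when single libraries were left out. In TAC replicate 3 Oas1c had its lowest count and its highest FPKM, 0.84 FPKM against 0.58 and 0.60 FPKM in TAC replicates 1 and 2. The implied gene length was 1181 bases there and 2272 to 2310 bases in the other 5 libraries, where the annotated coding transcript has 2291 bases. The tests of each gene's difference used the counts, except where FPKM is named. Of 11701 genes with at least 20 reads and 0.4 FPKM in every library, 3.15% had an implied length that varied over 1.5-fold between libraries.

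**Figure D3:**
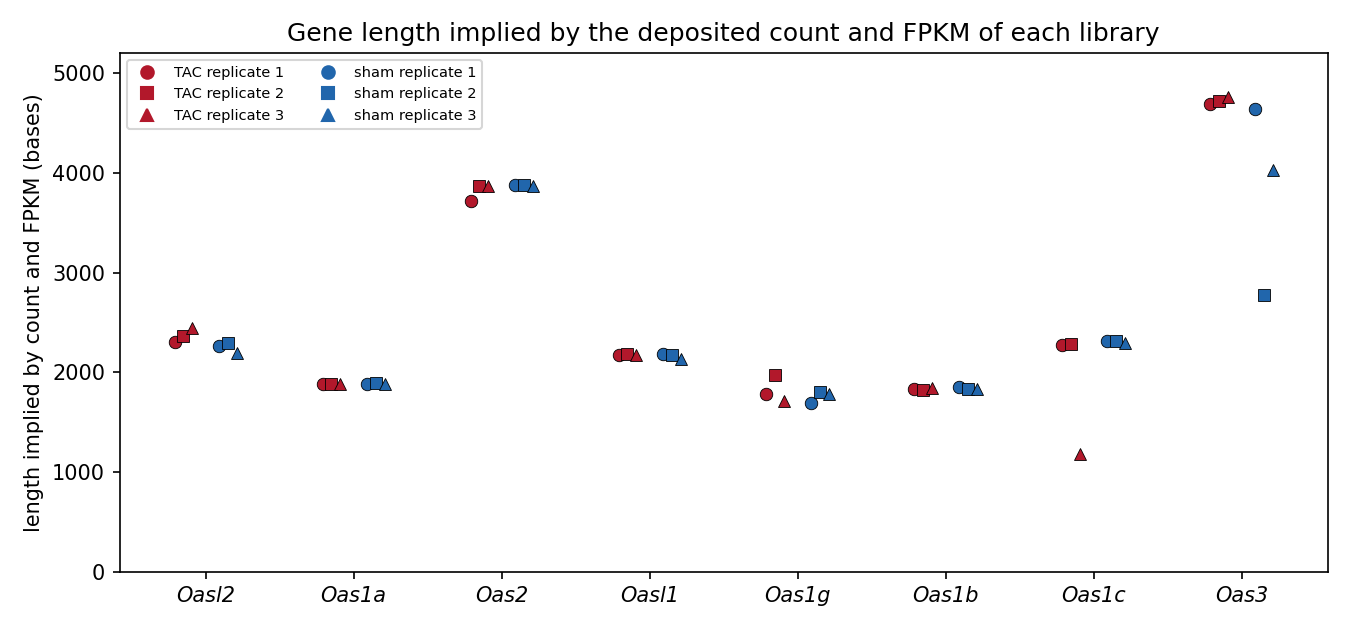
Gene length implied by the deposited count, FPKM and library total, in bases, for the 8 OAS genes, with TAC libraries in red and sham libraries in blue. Oas3 in sham replicates 2 and 3 (2776 and 4030 bases) and Oas1c in TAC replicate 3 (1181 bases) lie away from the other libraries of the same gene.

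The OAS-like genes did not pass the test. Oasl1, which has no synthetase activity and in mouse limits the translation of Irf7, had 3.91, 2.08 and 3.57 CPM in TAC replicates 1, 2 and 3 and 3.64, 1.99 and 3.28 CPM in sham replicates 1, 2 and 3. The groups overlapped, and the log2 fold change was 0.11 (edgeR, SE 0.33, adjusted p = 0.858). Oasl2, which in mouse keeps synthetase activity, had 28.9, 18.7 and 18.8 CPM in TAC replicates 1, 2 and 3 and 24.7, 21.0 and 30.9 CPM in sham replicates 1, 2 and 3. TAC replicate 1 was inside the sham range, and TAC replicates 2 and 3 were below every sham library. The log2 fold change of Oasl2 was -0.20 (edgeR, SE 0.22, adjusted p = 0.576), and -0.46 without TAC replicate 1 (edgeR adjusted p = 0.105). The most abundant member and the least abundant one thus had fold changes of opposite sign, of which the positive one passed the test.

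**Figure D4:**
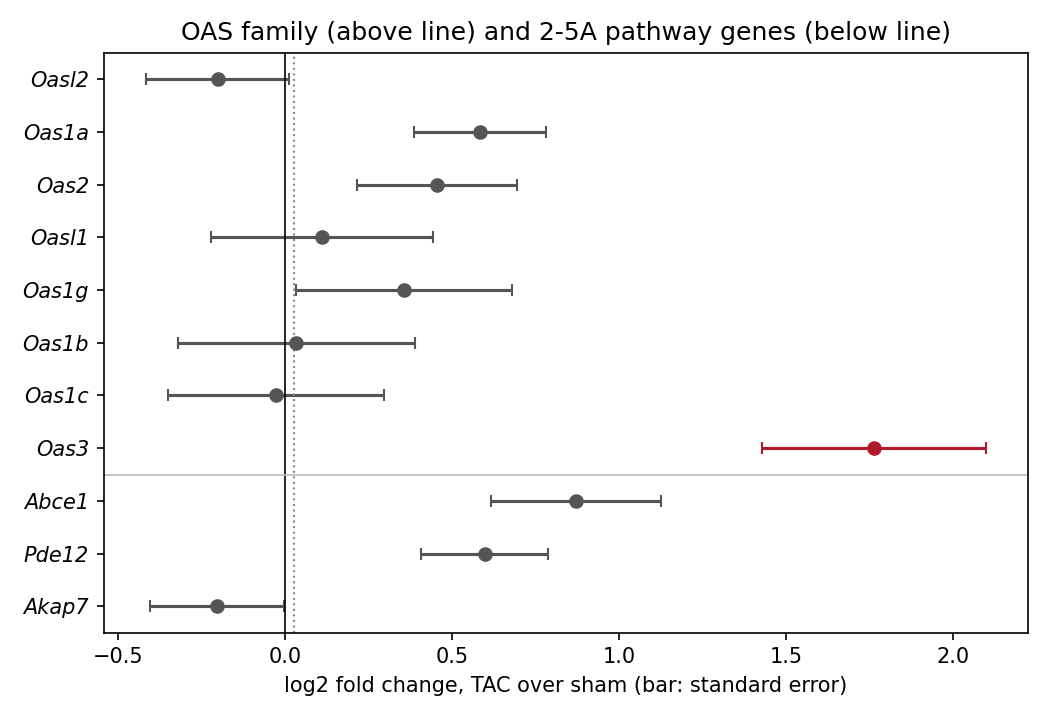
Log2 fold change, TAC over sham, from the edgeR fit to 3 libraries per group, of the 8 OAS genes (above the grey line) and the 3 tested genes of the 2-5A pathway (below it), with bars of 1 SE and a dotted line at the median of all genes, 0.03. Oas3, in red as the gene that passed the test, stands at 1.76, and the other 7 OAS genes lie between -0.20 and 0.58.

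The median log2 fold change of the 8 members was 0.23, and it was 0.03 over all genes tested. Of the members, 6 of 8 had a positive value, as had 52.9% of all genes. The change of Oas3 was set against that of each other member within the libraries, as the difference of log2(CPM + 0.5). In all 7 pairs this difference was higher in every TAC library than in any sham library. The change of Oas3 exceeded that of Oas1a by 0.67, Oas2 by 0.81, Oas1g by 0.93, Oasl1 by 1.13, Oas1b by 1.20, Oas1c by 1.24 and Oasl2 by 1.43 on the log2 scale. By exact permutation, two-sided, p was 0.1 for every pair, the smallest that 3 against 3 libraries allow, and 0.1 after Benjamini-Hochberg adjustment over the 7 pairs, so none reached 0.05.

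Across the 6 libraries, members were also compared by likeness, the root mean square difference of their log2(CPM + 0.5) values after each gene's mean was removed, which is a description over libraries that share their depth. The most alike were Oas1a and Oas1g, at 0.16, a pair that shares reads. Oas2 followed, at 0.181 to Oas1a and 0.202 to Oas1g. The least alike were Oas3 and Oasl2, at 0.764, and the member nearest to Oas3 was Oas1a, at 0.367. TAC replicate 1 was the highest TAC library in 5 of the 8 members, Oas1a, Oas1g, Oas2, Oasl1 and Oasl2, as it was in 34.5% of all genes tested.

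**Figure D5:**
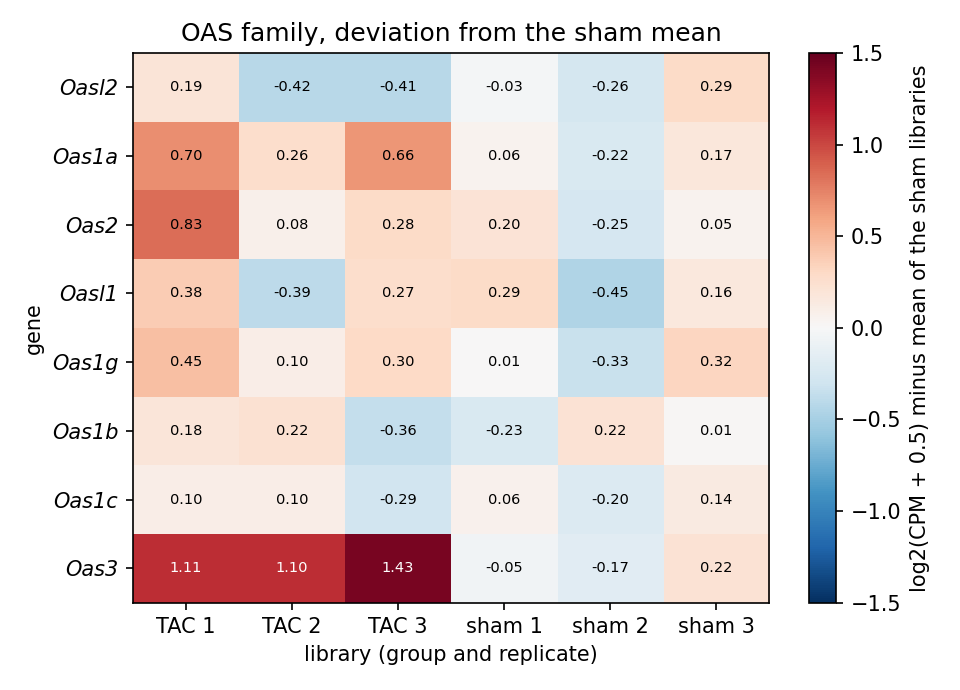
Difference of each library from the sham mean in log2(CPM + 0.5), for the 8 OAS genes (rows), with TAC libraries in the left 3 columns and sham libraries in the right 3, red above and blue below the sham mean. Oas3 stands at 1.11, 1.10 and 1.43 in TAC replicates 1, 2 and 3, and Oasl2 at 0.19, -0.42 and -0.41.

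The genes whose pattern over the 6 libraries was most like that of Oas3 were Itga2b, Coro2a, Alox5ap, Cthrc1 and Ttll7, at root mean square differences of 0.09, 0.11, 0.15, 0.16 and 0.16. They lie on chromosomes 11, 4, 5, 15 and 3. Itga2b, the platelet integrin subunit, averaged 2.74 CPM in TAC and 0.913 CPM in sham, a log2 fold change of 1.58 (edgeR, SE 0.27, adjusted p = 0.0371). Alox5ap, which is needed for leukotriene synthesis, averaged 28.8 CPM in TAC and 11.9 CPM in sham, a log2 fold change of 1.27 (edgeR adjusted p = 0.0229). Ttll7 also passed (1.41, edgeR adjusted p = 0.0173). Coro2a (1.32, edgeR adjusted p = 0.0619) and Cthrc1 (1.51, edgeR adjusted p = 0.0630) did not. These genes were chosen for likeness to Oas3 over the same libraries. A higher level in TAC follows from that choice, so their p-values are not a separate test. With a pseudocount of 2, Alox5ap and Ttll7 were no longer among the nearest 20. The genes most like Oasl2 were Map3k13, Engase, Ccdc57, Slc35f1 and Slit2, at 0.09 to 0.10, and Map3k13 and Ccdc57 left the nearest 20 with a pseudocount of 2. For both genes the likeness reflects the group difference and the spread within groups together.

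The genes flanking the clusters were looked at after their values could be seen. Of the nearest 3 genes on each side of both clusters, 7 were tested and none passed (edgeR), with log2 fold changes from -0.36 for Sppl3 (adjusted p = 0.0927) to 0.18 for Rpl6. Without TAC replicate 1, Sppl3 was lower in TAC, at -0.42 (edgeR adjusted p = 0.0266). The other annotated Oas1 paralogues were at or next to 0. Oas1d, Oas1f and Oas1h had 0 reads in all libraries, which allows up to 0.110 to 0.154 CPM per library (3 reads, counting error only), and Oas1e had 1 read, in TAC replicate 3.

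Of 3 other genes of the 2-5A pathway none passed the test (edgeR), 2 had an unadjusted p under 0.05 and DESeq2 called 1 higher. Over all 13708 genes tested, 3508 had an unadjusted p under 0.05, in either direction, and DESeq2 called 7.81% higher. Abce1, a ribosome recycling factor that was first described as an inhibitor in the 2-5A pathway, had 40.5, 61.4 and 81.8 CPM in TAC replicates 1, 2 and 3 and 41.3, 30.8 and 28.4 CPM in sham replicates 1, 2 and 3. TAC replicate 1 was below the highest sham library. The log2 fold change was 0.87 (edgeR, SE 0.26, adjusted p = 0.0913), DESeq2 called it (adjusted p = 0.0169), and the fit that left out TAC replicate 1 gave 1.08 (edgeR adjusted p = 0.0116). At an adjusted p under 0.10, which Abce1 met, 8.25% of all genes were higher in TAC. Pde12, a phosphodiesterase that degrades 2-5A, had 11.6, 14.5 and 18.9 CPM in TAC replicates 1, 2 and 3 and 9.54, 9.67 and 10.5 CPM in sham replicates 1, 2 and 3. Its groups did not overlap, with a log2 fold change of 0.60 (edgeR, SE 0.19, adjusted p = 0.105), and 0.74 without TAC replicate 1 (edgeR adjusted p = 0.0187). Akap7, an anchoring protein that in mouse also degrades 2-5A, had 19.8, 16.7 and 11.4 CPM in TAC replicates 1, 2 and 3 and 18.6, 19.7 and 16.9 CPM in sham replicates 1, 2 and 3, a log2 fold change of -0.20 (edgeR, SE 0.20, adjusted p = 0.545).

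Genes that sense double-stranded RNA beside the OAS proteins, such as the RIG-I-like receptors and their adaptor Mavs, gave 0 calls of 14 tested (edgeR). Of these 4 had an unadjusted p under 0.05, all higher in TAC, and DESeq2 called 3 higher. Over all 13708 genes tested, 3508 had an unadjusted p under 0.05, in either direction, and DESeq2 called 7.81% higher. The median log2 fold change of the 14 was 0.18, against 0.03 over all genes tested. Mavs, the most abundant, averaged 78.1 ± 21.2 CPM in TAC and 83.6 ± 1.60 CPM in sham (SD, n = 3 each), with a log2 fold change of -0.10 (edgeR, SE 0.18, adjusted p = 0.764). Prkra, an activator of the kinase PKR, had a log2 fold change of -0.18 (edgeR, SE 0.14, adjusted p = 0.431). Without TAC replicate 1, 2 of the 14 were higher, Eif2ak2, which encodes PKR, and Ikbke, where 13.2% of all genes were called higher.

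Interferons themselves were at or near 0. Of 11 ligand genes none had enough reads to be tested, and 9 had 0 reads in every library. Ifng, the type II interferon, had 3, 1 and 5 reads in TAC replicates 1, 2 and 3 and 0 reads in each sham library (exact two-sided permutation test, p = 0.1, the smallest possible). Ifnb1 had 1 read, in TAC replicate 1. Of 17 tested genes of interferon receptors, kinases, STAT and IRF factors and their inhibitors, 0 passed (edgeR), 3 had an unadjusted p under 0.05 and DESeq2 called 2 higher, and their median log2 fold change was -0.01. Over all 13708 genes tested, 3508 had an unadjusted p under 0.05, in either direction, and DESeq2 called 7.81% higher. Ifngr2, a subunit of the interferon-gamma receptor, had 169, 87.5 and 116 CPM in TAC replicates 1, 2 and 3, against 188, 162 and 174 CPM in sham replicates 1, 2 and 3. It had a log2 fold change of -0.49 (edgeR, SE 0.22, adjusted p = 0.209), and -0.80 without TAC replicate 1 (edgeR adjusted p = 0.0132). In that fit 3 of the 17 were higher in TAC, Irf5, Irf8 and Jak2, and Ifngr2 was the 1 lower. Of all 13907 genes in that fit, 13.2% were called higher and 1392 lower. Ifngr1, the other subunit of the interferon-gamma receptor, had a log2 fold change of -0.03 (edgeR, SE 0.10, adjusted p = 0.862).

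Among 28 other interferon-induced genes, 1 rose in TAC, none fell and 27 did not pass (edgeR), with a median log2 fold change of 0.17. Of the 28, 6 had an unadjusted p under 0.05, all higher in TAC, and DESeq2 called 2 higher. Among all 13708 genes tested, edgeR called 1.12% higher and 0.54% lower, and the median was 0.03. Of these, 3508 had an unadjusted p under 0.05, in either direction, and DESeq2 called 7.81% higher. The gene that rose by edgeR was Trim30a, a TRIM protein known in mouse to restrain inflammatory signalling. It had 18.6, 21.2 and 16.8 CPM in TAC replicates 1, 2 and 3 and 11.2, 7.94 and 10.3 CPM in sham replicates 1, 2 and 3, and the groups did not overlap. Its log2 fold change was 0.95 (edgeR, SE 0.17, adjusted p = 0.0414), and its counts were fractional, so reads had been divided with other genes. The adjusted p of Trim30a was 0.0187 without TAC replicate 1, 0.125 without TAC replicate 2, 0.0510 without TAC replicate 3, and 0.141, 0.217 and 0.208 without sham replicates 1, 2 and 3 (edgeR). Calls over all genes were fewer than in the main fit in each of these fits but that without TAC replicate 1. Groups that did not overlap, with TAC higher, were seen in 6 of the 28, beside the 18.4% of all genes. Without TAC replicate 1, 2 of the 28 were higher, Trim30a and Samd9l, and 2 were lower, Cmpk2 and Ifit3. Of all 13907 genes in that fit, 13.2% were called higher and 1392 lower.

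TAC replicate 1 was the highest TAC library in 21 of these 28 genes and in 10 of the 17 interferon signalling genes, against 34.5% of all genes tested. It was the highest of all 6 libraries in 15 of the 28 and in 4 of the 8 OAS members, against 13.2% of all genes. Named after its values were seen, Igtp, an interferon-gamma-induced GTPase, had 53.9, 15.3 and 13.6 CPM in TAC replicates 1, 2 and 3 and 16.4, 16.4 and 20.04 CPM in sham replicates 1, 2 and 3. TAC replicate 1 thus had the highest value of Igtp, and the other TAC libraries lay below every sham library. Oas3 was not highest in this library.

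Some markers of immune cells, which can express OAS genes, differed between the groups. Of 10 macrophage and monocyte markers 3 rose, Cd68 (log2 fold change 1.56, edgeR adjusted p = 0.0359), Ccr2 (2.86, edgeR adjusted p = 0.0327) and Mrc1, and none fell. DESeq2 called 8 of the 10 markers higher. Their summed level was 808 to 1233 CPM in TAC and 581 to 692 CPM in sham. Of 7 tested neutrophil markers of 8 listed 3 rose, S100a8 (4.97, edgeR adjusted p = 0.0363), S100a9 (4.77, edgeR adjusted p = 0.0327) and Mmp8, with a summed level of 24.0 to 132 CPM in TAC and 2.91 to 8.42 CPM in sham. DESeq2 called 6 of the 7 higher. Among all genes tested, edgeR called 1.12% higher and DESeq2 7.81%. The neutrophil sums of TAC replicates 1, 2 and 3 were 24.0, 130 and 132 CPM, and their macrophage and monocyte sums were 808, 1233 and 1070 CPM. Oas3 stood at 1.87, 1.87 and 2.47 CPM in these libraries, and its relation to these sums was not tested. B cell markers (5 tested) summed to 10.4 to 37.8 CPM in TAC and 5.59 to 9.28 CPM in sham, and T and NK cell markers (4 tested of 7) to 4.15 to 6.38 CPM in TAC and 2.21 to 3.23 CPM in sham. Dendritic cell markers (4 tested of 6) summed to 21.9 to 26.5 CPM in TAC and 20.5 to 23.3 CPM in sham, and no gene of these 3 lists passed (edgeR). DESeq2 called 2 B cell markers higher and none of the T and NK or dendritic cell markers. TAC was higher without overlap in 4 B cell, 2 T and NK cell and 1 dendritic cell markers, beside 18.4% of all genes.

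Among heart cell types, 1 of 6 endothelial markers fell, Tie1 (log2 fold change -0.63, edgeR adjusted p = 0.0414), and none rose. Emcn, of the same list, had higher values in every TAC library than in any sham library, with a log2 fold change of 0.38 (edgeR adjusted p = 0.0835), and DESeq2 called 1 endothelial marker higher and 2 lower. The list summed to 1167 to 1267 CPM in TAC and 1425 to 1512 CPM in sham. None of 7 cardiomyocyte, 6 fibroblast or 6 smooth muscle and pericyte markers passed (edgeR). DESeq2 called 2 cardiomyocyte and 3 smooth muscle and pericyte markers lower, beside 598 of all 13708 genes, and no fibroblast marker. TAC was lower without overlap in 2 cardiomyocyte, 1 fibroblast and 4 smooth muscle and pericyte markers, beside 13.1% of all genes. Cardiomyocyte markers summed to 32210 to 43875 CPM in TAC and 43372 to 44411 CPM in sham, the highest sum of any marker list. The 7 markers called by edgeR all passed without TAC replicate 1, and none passed with any other library left out (edgeR adjusted p of 0.0506 to 0.235). Over all genes, 23.2% were called without TAC replicate 1, and fewer than in the main fit with any other library left out. None of the listed markers was at 0 in all libraries. The part of these cell types in the Oas3 difference was not tested.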

How the data were processed

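Poly(A)-selected RNA of the 6 heart libraries was sequenced on an Illumina NovaSeq, per the labels' protocols. The deposited table gives, per the file headers, an estimated count and an FPKM value for each gene and library. Per the submitters' processing notes the tools were HISAT2, Bowtie2 2.2.8, DESeq2 and StringTie 1.3.1 and the build was GRCm38, with no role stated for each tool. GENCODE M21 symbols matched 22255 of 22298 identifiers. Groups and replicate numbers came from the sample titles.

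Estimated counts were rounded and fitted with edgeR 4.0.16 in R 4.3.3 (filterByExpr, minimum count 10, TMM, quasi-likelihood test, two-sided, Benjamini-Hochberg over 13708 genes). CPM use TMM-scaled library sizes. An SE is the log2 fold change divided by the square root of F. The biological coefficient of variation was 21.7%. Fits were tested on simulated data. Alternatives were other size factors, DESeq2 1.42.0, limma 3.58.1, other filters, a replicate block and each library left out. Every pair of replicates differed by more than read sampling, with chi-square over degrees of freedom of at least 11.7. It ran from 11.7 to 18.1 between sham libraries and from 78.3 to 100 between TAC libraries.

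The members and lists were chosen with earlier results of these data known. Named genes were all members, called genes of each list (up to 4; markers up to 2) or, with none called, the 2 of highest FPKM, and the 5 genes most like Oas3 and Oasl2 with at least 1 CPM. Mmp8 and Mrc1, and genes called only under an alternative, were named after their values were seen. Results for 2 listed genes are not reported here.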

Additional observations from a re-analysis of the deposited data

How the results depend on the processing

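The count of OAS genes called, 1 (Oas3, higher in TAC), was 0 with DESeq2 size factors (Oas3 adjusted p = 0.0501, edgeR), 0 with limma-voom (0.0562), 0 with limma-trend on log2(FPKM + 1) (0.133) and 0 with no filter on low counts (0.0633, edgeR). It was also 0 with a minimum count of 100, where Oas3 was not tested. It stayed 1 with upper-quartile factors (edgeR adjusted p = 0.0497), DESeq2's Wald test (0.0024), an adjusted p under 0.10 and, added after seeing the data, limma-trend on log2 CPM (0.0465) and Oas1a and Oas1g summed. With each library left out in turn it ranged from 0 to 1.

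The count of called pathway genes, 1 (Trim30a), was 8 with DESeq2's Wald test and 8 at an adjusted p under 0.10 (edgeR), in both cases Abce1, Eif2ak2, Irf5, Jak2, Samd9l, Tlr3, Trim30a and Zbp1, all higher in TAC. It was 0 with limma-trend on log2(FPKM + 1), and 0 to 12 with each library left out, the 12 without TAC replicate 1. That fit called 23.2% of all genes, in either direction. At an adjusted p under 0.10, 8.25% of all genes were higher, and 7.81% with DESeq2. The cause of these differences was not tested.

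With the replicate number as a block, both counts were 0 (Oas3 adjusted p = 0.0922, edgeR). Same-numbered TAC and sham libraries did not deviate together (correlations of -0.03, -0.10 and -0.03), so this check found no sign of pairing by number. It cannot show whether the samples were paired by design.

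The 7 marker calls were also lost with the block and with limma-trend on log2(FPKM + 1), and all but that of Tie1 with limma-voom. The sign of small log2 fold changes moved. Oas1b was -0.0096 with limma-voom and -0.13 to 0.24 with each library left out. Oas1c was 0.11 on log2(FPKM + 1) and -0.18 to 0.12 with each library left out. Oasl1 ranged from -0.14 to 0.31 and Mavs from -0.36 to 0.051 in those fits. Counts of 11 to 58 reads limit Oas3, Oas1b and Oas1c.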
